A study of Mus musculus with 12 samples.

Results

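The non-catalytic subunits of the CCR4-NOT deadenylase complex were followed in polysome-bound RNA of mouse oocytes. The 5 genes Cnot1, Cnot2, Cnot3, Cnot4 and Cnot10 were taken by symbol from a table of 23235 genes, and all 5 had the mean of at least 1 FPKM over the 12 libraries that 11667 genes reached. FPKM divides fragments by transcript length and library size, so levels of different genes can be set side by side per length. Oocytes of Cnot6l-/- mice and of WT mice, all C57BL/6 and at postnatal day 21, were sequenced at 3 stages with 2 libraries per group. The stages are GV (germinal vesicle, prophase-arrested), MI (first meiotic metaphase) and MII (arrest at the second metaphase). GV oocytes are labelled as taken 48 h after PMSG, the gonadotropin that stimulates follicle growth, and MI and MII oocytes as cultured for 8 h and 16 h. The labels mention an ERK1/2 inhibitor, U0126, in some experiments without tying it to any library, and they do not say which part of Cnot6l is deleted or in which cells. The design text speaks of 2 oocytes without saying whether this is the number per library. Libraries were made by Tn5 transposition from 500 pg of pre-amplified cDNA, and nothing states that the replicates came from separate animals, so p-values measure only the spread between these libraries, which may be technical.

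CCR4-NOT shortens poly(A) tails, which in oocytes brings on the translational silencing and decay of maternal mRNA. CNOT1 is the scaffold on which the other subunits assemble, and CNOT2 with CNOT3 forms the module at its C-terminal end. CNOT10 with CNOT11 binds its N-terminal end, and CNOT4 is a RING-type E3 ubiquitin ligase that associates loosely with the mammalian complex. The deadenylase subunits are CNOT7 or CNOT8 together with CNOT6 or CNOT6L, the subunit targeted here. In maturing oocytes, stored mRNAs with a U-rich cytoplasmic polyadenylation element (CPE) near their end are known to gain poly(A) and enter polysomes.

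The 3′ UTR ends of these 5 mRNAs differ in such elements, and the sites are shown because polysome loading in maturing oocytes is known to be read from this part of an mRNA. The last 150 bases of the transcript with the longest coding sequence were searched on the sense strand in GENCODE mouse release 1, on build NCBIM37 (mm9), the build of the files. The CPE letters TTTTAT or TTTTAAT occurred in Cnot1 and Cnot3 and in 23.1% of the 16878 genes with such a window, and the AU-rich letters TATTTAT in Cnot3 alone of the 5 and in 6% of genes. Capitals mark the match, and TATTTAT and TTTTAT have the letters TTTAT in common, though these 2 matches in Cnot3 lie at separate places.
Cnot1 CPE: aagatgtattgaTTTTATatatgtgagtac
Cnot3 CPE: aaatatttatgaataaatagTTTTATatga
Cnot3 AU-rich: attttggaaaaTATTTATgaataaatagtt
The Cnot1 stretch lies at chr8:98243404-98243433 on the minus strand, with its match 65 bases from the transcript's end. The Cnot3 stretches lie at chr7:3612673-3612702 and chr7:3612665-3612694 on the plus strand, with matches 4 and 20 bases from the end. The polyadenylation signal AATAAA stood in the last 40 bases of Cnot2, Cnot3 and Cnot4, as in 60.9% of genes.
Cnot2 signal: tcttctctttgtAATAAAgtagaaaagctc
Cnot3 signal: aaaatatttatgAATAAAtagttttatatg
Cnot4 signal: actaaaatcttaAATAAAacagaaaacttg
These lie at chr10:115922227-115922256 on the minus strand, chr7:3612672-3612701 on the plus strand and chr6:34972072-34972101 on the minus strand. The AATAAA of Cnot3 lies between its AU-rich and CPE letters. The variant signal ATTAAA, found in 16.8% of genes, and the Pumilio letters TGTANATA, found in 6.2%, were in none of the 5 windows, and none of these letters was in the window of Cnot10. A match is a description of the sequence and not of binding. The 3′ UTR of these transcripts is 956 bases long in Cnot1, 1034 in Cnot2, 274 in Cnot3, 1065 in Cnot4 and 484 in Cnot10.

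Over the whole series, summed FPKM was 884142 to 1663870 per library and 9064 to 13319 genes were above 0, with both lowest in WT MII and highest in Cnot6l-/- MI oocytes. Read depth is unknown. Replicates correlated across genes with Pearson's r of 0.865 to 0.949 on log2 values. All 10 oocyte markers, Zp3 and Gdf9 among them, were at 1 FPKM or more in every library. The 12 cumulus and granulosa markers summed to 154.7 to 206.6 FPKM in Cnot6l-/- GV, 142 to 176 in Cnot6l-/- MI and 80.7 to 123 in Cnot6l-/- MII oocytes. The WT sums were 290.4 to 325 FPKM at GV, then 124 to 131 at MI, then 50.1 to 77.7 at MII. Of these 12 markers, 7 to 10 were above 0 in each GV and MI library and 4 to 7 in each MII library, while Foxl2 was at 0 in all 12 libraries. Markers of theca, stroma, endothelium and blood summed to 13.1 to 70.2 FPKM. Pecam1 was above 0 in every library, and Cyp17a1, Col1a1, Col3a1, Cdh5 and Ptprc were at 0 throughout. The granulosa sum is highest in WT GV oocytes, as are Cnot2 and Cnot10, and its part in the stage and genotype differences below was not tested. The targeted Cnot6l had 6.28 and 21.6 FPKM in Cnot6l-/- against 38.7 and 16.1 in WT GV oocytes, 23.5 and 16.5 against 68.5 and 47.9 at MI, and 16.4 and 16.0 against 65.2 and 49.4 at MII. Its GV libraries overlap between the genotypes, and without the deleted part being given it is an incomplete check of the labels.

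Cnot1, the scaffold gene (chr8:98243351-98331362, minus strand), had its lowest FPKM in WT MII oocytes and its highest in Cnot6l-/- MI oocytes. It had 19.7 and 19.4 FPKM in Cnot6l-/- GV, 21.4 and 23.7 in Cnot6l-/- MI and 13.5 and 13.8 in Cnot6l-/- MII oocytes. The WT values were 15.2 and 14.1 FPKM at GV, then 10.2 and 6.83 at MI, then 2.92 and 4.65 at MII. The mutant libraries lie above the WT libraries at each stage with no overlap, as they do for 17.9% of all tested genes at GV, 69.5% at MI and 48.9% at MII. By group mean the order is Cnot6l-/- MI (22.6 ± 1.66 FPKM, SD, n = 2), Cnot6l-/- GV (19.5 ± 0.226), WT GV (14.7 ± 0.806), Cnot6l-/- MII (13.6 ± 0.226), WT MI (8.51 ± 2.38) and WT MII (3.79 ± 1.22), and no 2 neighbours in it overlap. Single steps of this kind are common. Of all tested genes, 37.3% lie higher without overlap in Cnot6l-/- MI than in Cnot6l-/- GV oocytes, and 30.8% lower in WT MII than in WT MI oocytes. Among the 11667 tested genes it stood between the 40.1st and the 54.1st percentile, the lowest mean level of the 5.

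Cnot2, which encodes one part of the CNOT2-CNOT3 module (chr10:115922217-116018567, minus strand), was at its highest in WT GV oocytes. It had 72.3 and 59.2 FPKM in Cnot6l-/- GV, 91.8 and 93.9 in Cnot6l-/- MI and 44.9 and 51.0 in Cnot6l-/- MII oocytes. The WT values were 109.8 and 101.8 FPKM at GV, then 40.5 and 39.1 at MI, then 40.3 and 54.4 at MII. WT GV (105.8 ± 5.65 FPKM, SD, n = 2), Cnot6l-/- MI (92.8 ± 1.49) and Cnot6l-/- GV (65.7 ± 9.21) follow each other without overlap. Cnot6l-/- MII (47.9 ± 4.26), WT MII (47.3 ± 9.93) and WT MI (39.8 ± 1.02) come below them, each overlapping the next. For 37.3% of all tested genes Cnot6l-/- MI likewise lies above Cnot6l-/- GV without overlap. For 38.9% Cnot6l-/- MII likewise lies below Cnot6l-/- GV, and the share was not computed for WT GV above Cnot6l-/- MI.

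Cnot3, the other part of that module (chr7:3596871-3612711, plus strand), had the highest FPKM of the 5 in every library, between the 88.0th and the 93.5th percentile of the tested genes. It had 174 and 167 FPKM in Cnot6l-/- GV, 273 and 282 in Cnot6l-/- MI and 175 and 243 in Cnot6l-/- MII oocytes, against 172 and 190.2 in WT GV oocytes, 130.0 and 158 in WT MI oocytes and 171 and 173 in WT MII oocytes. Cnot6l-/- MI (277 ± 6.16 FPKM, SD, n = 2) stands above the rest, and for 54.9% of all tested genes it likewise lies above Cnot6l-/- MII without overlap. The next 4 groups, Cnot6l-/- MII (209 ± 47.9), WT GV (181 ± 12.6), WT MII (171.5 ± 1.44) and Cnot6l-/- GV (171 ± 5.03), each overlap their neighbour, and WT MI (144 ± 19.7) lies below. The WT MII libraries of Cnot3 overlap those of WT GV and lie above both WT MI libraries, as for 17.5% of all tested genes.

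Cnot4, the ubiquitin ligase gene (chr6:34972065-35083737, minus strand), had 55.7 and 42.0 FPKM in Cnot6l-/- GV, 64.8 and 64.8 in Cnot6l-/- MI and 42.5 and 34.25 in Cnot6l-/- MII oocytes. The WT values were 56.3 and 51.4 FPKM at GV, then 32.9 and 20.2 at MI, then 49.8 and 24.55 at MII. Only Cnot6l-/- MI (64.8 ± 0.0071 FPKM, SD, n = 2) stands clear of its neighbour in the order, and the share of all genes with that step was not computed. WT GV (53.8 ± 3.48), Cnot6l-/- GV (48.8 ± 9.67), Cnot6l-/- MII (38.4 ± 5.84), WT MII (37.2 ± 17.8) and WT MI (26.5 ± 8.97) overlap from each to the next.

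Cnot10, the partner of CNOT11 at the scaffold's N-terminal end (chr9:114494992-114549318, minus strand), covered the widest range of the 5, between the 13.1st and the 67.1st percentile of the tested genes. It had 22.2 and 32.1 FPKM in Cnot6l-/- GV, 14.0 and 27.3 in Cnot6l-/- MI and 8.90 and 16.4 in Cnot6l-/- MII oocytes. The WT values were 40.9 and 37.8 FPKM at GV, then 0.47 and 11.1 at MI, and at MII one library had 0.66 FPKM while the other lists it at 0. The WT GV mean (39.4 ± 2.21 FPKM, SD, n = 2) lies above the rest, and Cnot6l-/- GV (27.2 ± 7.02), Cnot6l-/- MI (20.6 ± 9.43), Cnot6l-/- MII (12.7 ± 5.30), WT MI (5.77 ± 7.49) and WT MII (0.33 ± 0.467) each overlap their neighbour in mean order. For 24.2% of all tested genes WT GV likewise lies above Cnot6l-/- GV without overlap. In WT MI oocytes the replicates differ by more than in any other group of this gene relative to their mean, apart from WT MII with its value of 0.

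**Figure D1:**
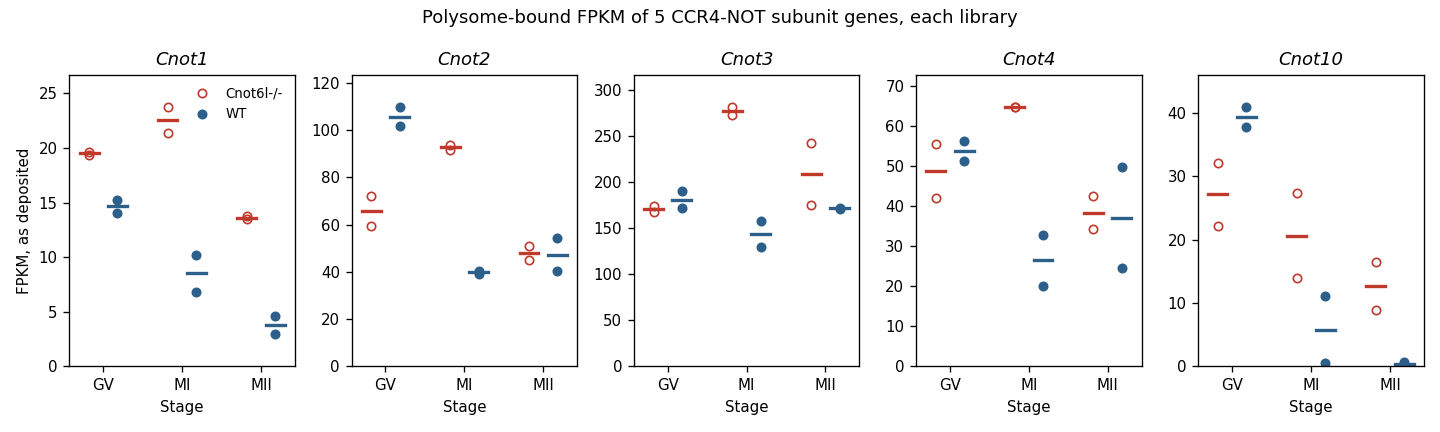
FPKM as deposited of the 5 genes (1 panel each, vertical axes from 0 on different scales) by stage, with open red circles for the 2 Cnot6l-/- libraries, filled blue circles for the 2 WT libraries and a short line at each group's mean. Cnot1 in Cnot6l-/- oocytes lies above WT at every stage, and Cnot10 in WT oocytes is at 37.8 and 40.9 FPKM at GV and at 0 and 0.66 at MII.

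Differences were tested with limma on log2(FPKM + 1), fitted over all 11667 genes and 6 groups, and a gene was called at a 2-sided Benjamini-Hochberg adjusted p below 0.05. Fold changes on this scale understate the change of genes at low FPKM. The median of all tested genes moved between groups by more than 0.1 in most comparisons, so each difference is also given relative to that median, and values after median scaling are set beside the deposited ones. Median scaling divides each library by its level over 5734 genes with a mean of at least 10 FPKM and does not level the genes below that. After it the median of all tested genes was still 0.025, 0.21 and 0.41 between Cnot6l-/- and WT oocytes at GV, MI and MII, and in WT oocytes -0.32 for MI against GV and -0.64 for MII against GV. Polysome-bound RNA in bulk libraries does not tell less RNA per oocyte apart from fewer oocytes, nor a change in an mRNA's amount from a change in its ribosome loading. The Cnot6l-/- and WT comparisons at different stages use different libraries, but the MI against GV and MII against GV comparisons within a genotype share their GV libraries.

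At GV, before the stages at which decay of maternal mRNA is known to proceed, 0 of the 5 genes were called between Cnot6l-/- and WT oocytes by limma, where 1.56% of all genes were called in either direction and 0.163% higher. At an unadjusted p below 0.05 there was 1, Cnot2, which differed by -0.68 (SE 0.25, 95% interval -1.24 to -0.12, adjusted p = 0.329, and 0.175 to 0.72 over 20 alternative settings). Relative to the median of all genes its difference was -0.63. Cnot1 differed by 0.39 (interval -0.55 to 1.33) and Cnot10 by -0.54 (interval -2.44 to 1.36), with adjusted p of 0.873 and 0.932. Cnot3 and Cnot4 differed by -0.08 and -0.15, and the sign of each turned under some settings.

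At MI, 4 of the 5 genes were higher in Cnot6l-/- oocytes, in a comparison where 27.9% of all genes were called higher. Cnot1 differed by 1.33 (SE 0.42, interval 0.39 to 2.27, adjusted p = 0.0402), Cnot2 by 1.20 (SE 0.25, interval 0.64 to 1.76, adjusted p = 0.00747), Cnot3 by 0.95 (SE 0.19, interval 0.52 to 1.37, adjusted p = 0.006) and Cnot4 by 1.30 (SE 0.38, interval 0.44 to 2.15, adjusted p = 0.0312). Cnot10 differed by 2.29 with an interval of 0.39 to 4.19 and was not called (adjusted p = 0.0678), and its WT libraries are far apart. The libraries of the genotypes did not overlap for any of the 5, as for 69.5% of all genes. The median of all genes was itself higher by 1.03 and the median of the 5 by 1.30. Relative to the median of all genes, Cnot1, Cnot2 and Cnot4 stood at 0.30, 0.17 and 0.27, Cnot3 at -0.08 and Cnot10 at 1.26.

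After median scaling 0 of the 5 were called at MI (4.59% of all genes either way, and 0 of the 5 at an unadjusted p below 0.05), with differences of 0.43 for Cnot1, 0.25 for Cnot2, -0.02 for Cnot3, 0.35 for Cnot4 and 1.50 for Cnot10 and adjusted p of 0.436 to 0.985. Over all 20 settings the adjusted p ran up to 0.873, 0.779, 0.985 and 0.807 for the 4 called genes. Without 1 of the Cnot6l-/- MI libraries the calls of Cnot1 (adjusted p 0.137 and 0.176), Cnot2 (0.0501 and 0.059) and Cnot4 (0.127 and 0.132) ended, as did that of Cnot3 without the second (0.0533). Without the second WT MI library those of Cnot1 (0.136) and Cnot4 (0.152) ended and Cnot10 was called at 3.81 (adjusted p = 0.00581), whereas without the first it stood at 0.77 (0.403). The call of Cnot1 also ended without either WT GV library (0.0589 and 0.0582), the first Cnot6l-/- GV library (0.0506) or either Cnot6l-/- MII library (0.0573 and 0.0574), which enter only through the shared spread.

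At MII, Cnot1 and Cnot10 were higher in Cnot6l-/- oocytes and the other 3 genes were not called, where 25.4% of all genes were called higher and 3.2% lower. Cnot1 differed by 1.64 (SE 0.42, interval 0.69 to 2.58, adjusted p = 0.0157) and Cnot10 by 3.35 (SE 0.85, interval 1.45 to 5.25, adjusted p = 0.0145). With WT libraries at 0 and 0.66 FPKM the size of the Cnot10 difference depends on the pseudocount, and with 0.1 in place of 1 it was 5.47 (adjusted p = 0.0145). Relative to the median of all genes, which was higher by 0.81, these are 0.82 and 2.53. Cnot2 differed by 0.03, Cnot3 by 0.26 (interval -0.16 to 0.69) and Cnot4 by 0.12, which relative to that median are -0.78, -0.55 and -0.69. By these estimates Cnot1 and Cnot10 stand above the median of all genes and Cnot2, Cnot3 and Cnot4 below it. The intervals of Cnot1 and of Cnot4 (-0.73 to 0.98) include that median. The gene of CNOT11, the partner of CNOT10, is listed as D1Bwg0212e. It differed by -0.65 (SE 0.65, adjusted p = 0.5), or -1.47 relative to that median, and was not called. Its estimate lies below that median where that of Cnot10 lies above, and whether the 2 genes differ was not tested.

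Median scaling left Cnot10 called at MII, at 3.23 (adjusted p = 0.0292, where 16% of all genes were called higher), and gave 1.14 for Cnot1 (adjusted p = 0.0822), -0.56 for Cnot2 (0.124) and -0.34 for Cnot3 (0.22). Adjusted p ran from 0.0122 to 0.426 for Cnot1 and from 0.00153 to 0.118 for Cnot10 over the 20 settings. Cnot1 was not called without the first WT MII library (1.37, adjusted p = 0.055) or either Cnot6l-/- MII library (0.0687 and 0.0737), and Cnot10 not without the first WT MII library (2.98, 0.0626), which lists it at 0, or the second Cnot6l-/- MII library (2.94, 0.0964).

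**Figure D2:**
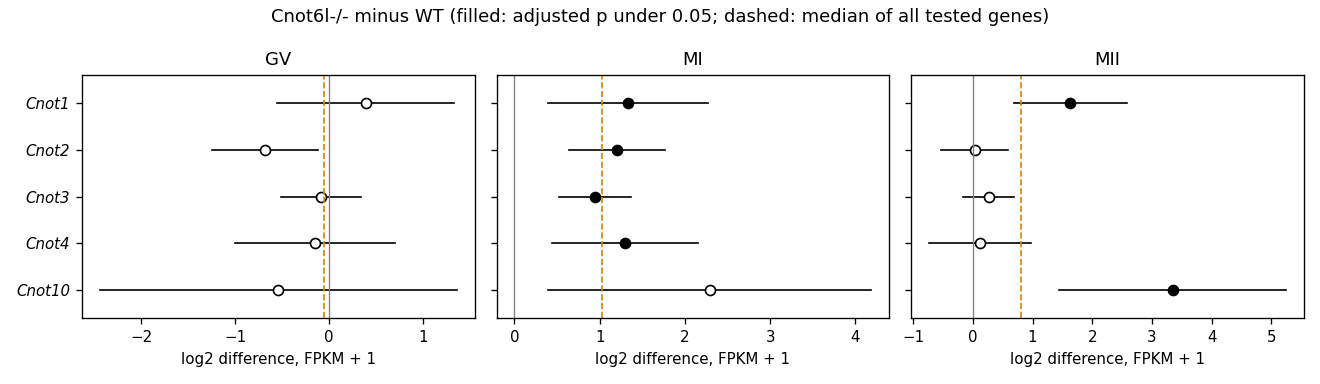
Difference between Cnot6l-/- and WT oocytes in log2(FPKM + 1) for the 5 genes at GV, MI and MII (horizontal axes differ), with 95% intervals, filled points where the adjusted p is below 0.05, a grey line at 0 and a dashed line at the median of all tested genes. At MI, Cnot1 to Cnot4 lie within 0.30 of the dashed line, and at MII Cnot1 and Cnot10 lie above it while Cnot2, Cnot3 and Cnot4 lie below.

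From GV to MI in WT oocytes Cnot2 and Cnot10 fell, among 21.7% of all genes called lower. Cnot2 differed by -1.39 between MI and GV (SE 0.25, interval -1.95 to -0.83, adjusted p = 0.00337) and Cnot10 by -3.26 (SE 0.85, interval -5.16 to -1.36, adjusted p = 0.0199). The median of all genes was -0.87, so relative to it they stood at -0.52 and -2.39. Cnot1 differed by -0.74 (adjusted p = 0.227), Cnot3 by -0.34 (0.225) and Cnot4 by -1.03 (0.0761). After median scaling Cnot2 stood at -0.72 (adjusted p = 0.0817) and Cnot10 at -2.74 (0.0774), and 0 of the 5 were called among 14.6% of all genes either way, with 2 lower at an unadjusted p below 0.05. The call of Cnot10 ended without the first WT MI library (-1.74, adjusted p = 0.0917) or either WT GV library (0.101 and 0.0927), and Cnot4 was called without either WT MII library (0.0279 and 0.0264).

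From MI to MII in WT oocytes 0 of the 5 were called by limma, where 22.1% of all genes were called in either direction, and 1 was lower at an unadjusted p below 0.05. This was Cnot1, at -0.99 between MII and MI (interval -1.93 to -0.05, adjusted p = 0.129). Cnot10 differed by -1.71 (adjusted p = 0.195), and without the first WT MI library it was called at -3.23 (0.00922), whereas without the second it stood at -0.19 (0.94) and with a pseudocount of 0.1 at -3.19 (0.127). Cnot2, Cnot3 and Cnot4 differed by 0.23, 0.26 and 0.43, against a median of all genes of -0.27.

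Over the whole course from GV to MII in WT oocytes Cnot1, Cnot2 and Cnot10 fell, among 38.3% of all genes called lower, with 6.02% called higher. Cnot10 had the largest difference of the 5, at -4.97 between MII and GV (SE 0.85, interval -6.87 to -3.07, adjusted p = 0.0009), and it was called in each of the 20 settings, with adjusted p of 7.9e-05 to 0.0136, and at -7.16 with a pseudocount of 0.1. Cnot1 differed by -1.73 (SE 0.42, interval -2.67 to -0.79, adjusted p = 0.00732) and Cnot2 by -1.16 (adjusted p = 0.00385). The median of all genes was -1.23, so relative to it Cnot10 stood at -3.74 and Cnot1 at -0.51, while Cnot2 stood at 0.07. The WT MII values of Cnot10, 0 and 0.66 FPKM, come from the libraries with the fewest genes above 0 (9116 and 9064). Read depth is unknown, and the part of detection in this difference was not tested.

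Cnot3 stood above the median of all genes over this course. It differed by -0.08 between MII and GV in WT oocytes (interval -0.50 to 0.35, adjusted p = 0.77), which is 1.15 above the median of all genes. After median scaling it was called higher, at 0.82 (adjusted p = 0.00601, among 14.9% of all genes called higher), and Cnot10 lower, at -4.56 (0.00305, among 25.8% called lower). Cnot1 (-0.97, adjusted p = 0.1) and Cnot2 (-0.27, 0.4) were then not called, and Cnot1 stood at -0.27 (0.663) under quantile normalization and -0.21 (0.742) under cyclic loess. Cnot4 differed by -0.61 (adjusted p = 0.23), or 0.62 above the median of all genes, and it was called lower only without the first WT MII library (-1.10, 0.0403).

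In Cnot6l-/- oocytes 1 of the 5 was called between stages. Between MI and GV, Cnot3 rose by 0.70 (SE 0.19, interval 0.27 to 1.12, adjusted p = 0.0439), among 8.89% of all genes called higher and with a median of all genes of 0.26. After median scaling its difference was 0.31 (adjusted p = 0.472), and without either WT GV library (0.0629 and 0.0636), either Cnot6l-/- GV library (0.125 and 0.154) or either Cnot6l-/- MI library (0.181 and 0.23) it was not called. The other 4 differed by 0.20 for Cnot1, 0.50 for Cnot2, 0.41 for Cnot4 and -0.43 for Cnot10.

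Between MII and MI in Cnot6l-/- oocytes limma called 0 of the 5, where 7.35% of all genes were called in either direction, and 2 were lower at an unadjusted p below 0.05. These were Cnot2, at -0.94 (interval -1.50 to -0.38, adjusted p = 0.0504), and Cnot3, at -0.42 (0.233), against a median of all genes of -0.59. Without the first or the second WT MII library Cnot2 was called (adjusted p = 0.0171 and 0.0177). Between MII and GV limma called 0 of the 5 among 15.9% of all genes, with 0 at an unadjusted p below 0.05. Cnot10 differed by -1.08 (interval -2.98 to 0.82, adjusted p = 0.447), where WT oocytes gave -4.97 and the difference between these was not tested, and Cnot3 by 0.27 (0.386).

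**Figure D3:**
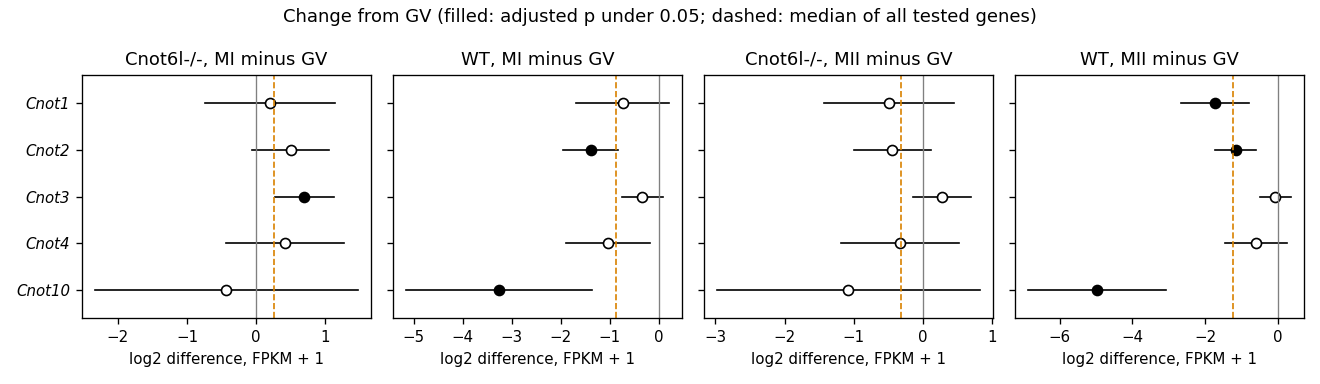
Difference of MI from GV and of MII from GV in log2(FPKM + 1), in Cnot6l-/- and then in WT oocytes, for the 5 genes (horizontal axes differ), with 95% intervals, filled points where the adjusted p is below 0.05, a grey line at 0 and a dashed line at the median of all tested genes. In WT oocytes Cnot10 lies far below the dashed line at both stages, and Cnot3 lies above it by 1.15 at MII.

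Whether the stage changes themselves differed between the genotypes was tested as an interaction. For MI against GV, Cnot2 and Cnot3 changed more upward in Cnot6l-/- than in WT oocytes, among 14.4% of all genes called so. The difference of differences was 1.88 for Cnot2 (SE 0.36, interval 1.09 to 2.68, adjusted p = 0.00779) and 1.03 for Cnot3 (SE 0.27, interval 0.43 to 1.63, adjusted p = 0.0305), with a median of all genes of 1.13. Relative to it they stood at 0.75 and -0.10, and after median scaling at 0.84 (adjusted p = 0.358) and -0.02 (0.989), with 0 of the 5 called among 1.56% of all genes. Cnot1, Cnot4 and Cnot10 gave 0.94, 1.45 and 2.83 and were not called. Without either WT MII library Cnot4 was called (adjusted p = 0.0391 and 0.0371), and without the second WT MI library Cnot10 was (4.35, 0.0134), whereas without the first it gave 1.31 (0.315).

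For MII against MI the interaction called 0 of the 5 by limma, where it called 6.52% of all genes in either direction, and 2 were lower at an unadjusted p below 0.05. Cnot2 gave -1.17 (interval -1.96 to -0.38, adjusted p = 0.0854), and without the first WT MII library it was called at -1.38 (0.0297). Cnot3 gave -0.68 (adjusted p = 0.186).

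Ratios between members within a library do not change when 1 factor divides the whole library. Quantile normalization and cyclic loess, which act by abundance, can change them. Cnot3 made up 43.7% to 67.8% of the summed FPKM of the 5, Cnot2 14.2% to 27.8%, Cnot4 8.59% to 18.9%, Cnot1 1.11% to 6.05% and Cnot10 0% to 10.4%. The sum was 344 and 319.9 FPKM in Cnot6l-/- GV, 465 and 491 in Cnot6l-/- MI and 285 and 358 in Cnot6l-/- MII oocytes. It was 394.5 and 395 in WT GV oocytes, 214 and 235 in WT MI oocytes and 263.5 and 257 in WT MII oocytes. Cnot3 led in each of the 12 libraries, and Cnot2 came second in 11, the exception being the first WT MII library with Cnot4 second. Cnot10 exceeded Cnot1 in 7 libraries and fell behind it in 5.

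The ratio of Cnot2 to Cnot3 FPKM varied between the groups. Cnot2 FPKM was 41.5% and 35.4% of that of Cnot3 in Cnot6l-/- GV, 33.6% and 33.3% in Cnot6l-/- MI and 25.6% and 21.0% in Cnot6l-/- MII oocytes, against 63.7% and 53.5% in WT GV oocytes, 31.2% and 24.8% in WT MI oocytes and 23.6% and 31.5% in WT MII oocytes. The GV libraries of the genotypes do not overlap in this ratio, with WT above Cnot6l-/-, those at MI do not overlap either, with Cnot6l-/- above WT, and those at MII overlap. Cnot1 was 11.3% and 11.6% of Cnot3 in Cnot6l-/- GV, 7.84% and 8.43% in Cnot6l-/- MI and 7.68% and 5.67% in Cnot6l-/- MII oocytes, against 8.83% and 7.40% in WT GV oocytes, 7.84% and 4.33% in WT MI oocytes and 1.71% and 2.70% in WT MII oocytes. At MII the WT libraries lie well below the mutant ones in this ratio. These ratios describe polysome-bound mRNA and not protein. They were not tested and not set against those of other pairs of genes.

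**Figure D4:**
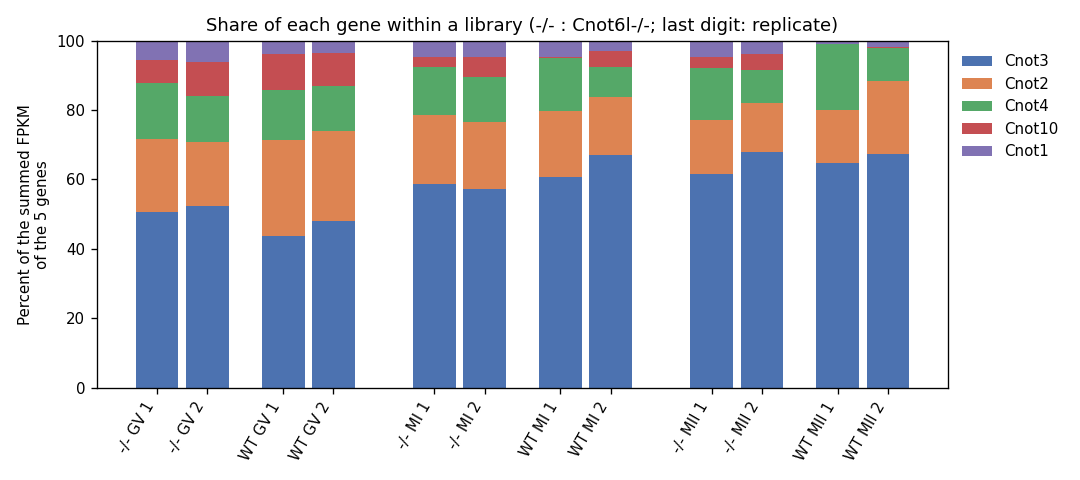
Share of each of the 5 genes in their summed FPKM (percent) in each of the 12 libraries, with the Cnot6l-/- libraries left of the WT libraries at each stage and the replicate number last. Cnot3 holds 43.7% to 67.8% everywhere, and the Cnot10 and Cnot1 segments are thinnest in the WT MII libraries.

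The other 7 subunits of the complex were all tested. Of the 7, Cnot7, a deadenylase gene, was called higher in Cnot6l-/- MI oocytes (1 of 7, against 27.9% of all genes), by 0.55 (adjusted p = 0.0196), which is -0.48 relative to the median of all genes. After median scaling Cnot7 stood at -0.41 at MI (0.132). Of the 7, 0 were then called higher and 1 lower, Cnot6l at -2.42 (0.0429), against 2.14% and 2.44% of all genes. Of the same 7, the gene of CNOT9, listed as Rqcd1, was called higher and Cnot6l lower in Cnot6l-/- MII oocytes (1 of 7 each way, against 25.4% and 3.2% of all genes). After median scaling 1 was higher and 2 were lower at MII (against 16% and 8.31%), with Cnot7 called lower at -0.95 (adjusted p = 8.2e-04). At GV limma called 0 of the 7 on deposited values (against 1.56% of all genes either way), with 0 at an unadjusted p below 0.05. CNOT9 is the subunit that binds CNOT1 and silencing adaptors. Rqcd1 had 32.8 and 43.1 FPKM in Cnot6l-/- against 13.8 and 4.46 in WT MII oocytes, a difference of 2.10 (SE 0.45, adjusted p = 0.00589) and 1.29 relative to the median of all genes. In WT oocytes it differed by -2.63 between MII and GV (adjusted p = 8.6e-04), where 38.3% of all genes were called lower. Cnot1, Cnot2 and Cnot10 were also called lower over that course. The 2 Rqcd1 comparisons share their WT MII libraries.

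Cnot7 and Cnot8, which encode the alternative DEDD-type deadenylases, were higher at MI and at MII than at GV in both genotypes. Cnot8 had 626 and 676 FPKM in Cnot6l-/- MI against 203 and 182 in Cnot6l-/- GV oocytes, a difference of 1.75 (adjusted p = 5.0e-05), and 421 and 523 in WT MI against 189 and 231 in WT GV oocytes, a difference of 1.16 (7.3e-04). Cnot7 had 412 and 445 FPKM in Cnot6l-/- MII against 227 and 230.1 in Cnot6l-/- GV oocytes, a difference of 0.90 (adjusted p = 0.00204), and 484 and 608 in WT MII against 208 and 183 in WT GV oocytes, a difference of 1.47 (1.9e-05). At MI Cnot7 had 518 and 560.3 FPKM in Cnot6l-/- and 354 and 381 in WT oocytes, so that MII lay below MI in Cnot6l-/- oocytes (-0.33, adjusted p = 0.219) and above it in WT oocytes (0.56, 0.019). The interaction for MII against MI was called for Cnot7, at -0.89 (adjusted p = 0.0281), and was -0.53 (0.154) after median scaling. In the WT course from GV to MII, 2 of the 7 were called higher, 1 lower and 4 neither way, against 6.02% of all genes called higher and 38.3% lower, with a median of 0.70 against -1.23 for all genes. After median scaling 4 were higher and 1 lower, against 14.9% and 25.8% of all genes.

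By Pearson's r of log2(FPKM + 1) over the 12 libraries, the patterns most like each member were those of Hmga2-ps1, Acsm4 and Zswim1 for Cnot1 (r of 0.986, 0.982 and 0.979), Ppa1, Lsp1 and Lrrc42 for Cnot2 (0.933, 0.931 and 0.930), and Nlrp4b, Unc13c and Plaa for Cnot3 (0.921, 0.920 and 0.904). For Cnot4 they were Srsf1, Lig1 and Pim2 (0.957, 0.944 and 0.929), and for Cnot10 Rpusd3, Lrch4 and Pstpip1 (0.979, 0.977 and 0.968). Of 10409 genes compared, r was above 0.9 for 555 with Cnot1 and 317 with Cnot10, but for 25 with Cnot2, 15 with Cnot4 and 4 with Cnot3. Between members r was 0.43 to 0.81, highest for Cnot1 with Cnot10. These points share libraries, stages and each library's scaling, and the values are a description.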

How the data were processed

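Polysome-bound RNA of 12 oocyte libraries, 2 in each of 6 groups of genotype and stage, was analysed from FPKM values as the authors deposited them, in 1 table of all libraries and in 12 tables of single libraries that hold the same values. Cufflinks 2.2.1, TopHat2 2.0.11 with Bowtie2 2.1.0, and CASAVA 1.8 are named with build mm9, per the submitters' processing notes, without their roles. Not given in the sources used here are the annotation, the read filters and the counts of reads. FPKM totals differ between libraries, and low values did not separate into steps of whole reads, so depth is unknown and precision rests on the replicates.

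The members are 5 listed symbols, and they and the gene lists were chosen with earlier results of these data known. limma 3.58.1 in R 4.3.3 was fitted to log2(FPKM + 1) of the 11667 genes whose mean FPKM reached 1, with 6 group means, 6 residual degrees of freedom, empirical Bayes moderation with an abundance trend, and Benjamini-Hochberg adjustment over all tested genes within each of 11 comparisons. Differences are the first-named group minus the second. The fit was tested on simulated data for Cnot6l-/- against WT at MI only, with no shift shared by all genes. That test therefore does not cover the shift of the median between groups seen here. Median scaling used 5734 genes whose mean FPKM reached 10 and that had no 0. Replicate numbers did not pair the libraries. Alternatives were a pseudocount of 0.1, no filter, TPM, median scaling, quantile normalization, removal of an abundance trend (cyclic loess), a fit of the compared groups only, a replicate block and leaving out each library.

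Beside the members, at most the 3 called genes with the largest difference per list and comparison were named, from 7 other CCR4-NOT subunits, 21 recruiters and partners and 8 other deadenylases, and the 3 genes most like each member. CNOT9 is listed as Rqcd1, CNOT11 as D1Bwg0212e and nocturnin as Ccrn4l. The gene of CNOT11 was named beside Cnot10 without being called. Motifs were searched by exact letters. Protein sequences were not used here.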

Additional observations from a re-analysis of the deposited data

Results flagged for a closer look

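The change from GV to MI differed between the genotypes for 2 of the 5 genes by the interaction test in limma. For Cnot2 the difference of differences was 1.88 (adjusted p = 0.00779), from a change of 0.50 in Cnot6l-/- and of -1.39 in WT oocytes. It kept its sign under all 20 settings but was not called under TPM (1.0, adjusted p = 0.24), median scaling (0.84, 0.358), quantile normalization (0.80, 0.358) or cyclic loess (0.76, 0.427). For Cnot3 it was 1.03 (adjusted p = 0.0305), from 0.70 in Cnot6l-/- and -0.34 in WT oocytes, and over the alternatives its adjusted p was 0.0161 to 0.989. It was not called without either WT GV library (0.0676 and 0.1), the first WT MI library (0.0773), either Cnot6l-/- GV library (0.0642 and 0.0713) or either Cnot6l-/- MI library (0.0887 and 0.108). The median of all genes was 1.13 in this contrast, with 14.4% of genes called higher. FPKM totals were also highest in Cnot6l-/- MI oocytes, and with totals made equal (TPM) the differences were 1.0 for Cnot2 and 0.14 for Cnot3.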

How the results depend on the processing

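Of 1100 values (55 member differences under 20 settings), 942 kept direction and call and 55 changed sign. Among the rest, which kept their sign, 86 lost the call and 17 gained it. Some of the values that changed sign also lost or gained a call and are not in these 2 counts. Many of the 1100 values could not change sign. Leaving out a library outside the comparison, a fit of the compared groups only, the replicate block and dropping the filter leave the difference itself as it was. Of the 55 differences, 36 kept direction and call under TPM, 33 under median scaling, 31 under quantile normalization and 30 under cyclic loess. Called counts changed as follows, and the cause was not tested. In Cnot6l-/- against WT oocytes the 4 called at MI became 0 under TPM, median scaling, quantile normalization and cyclic loess and 2 in a fit of the compared groups only (0 to 4 leaving out 1 library). The 2 called at MII became 1 under TPM and median scaling and 0 under quantile normalization, cyclic loess and that smaller fit (0 to 2). For WT MI against GV, 2 became 1 with a pseudocount of 0.1 and in the smaller fit and 0 under median scaling, quantile normalization and cyclic loess (1 to 3). For WT MII against MI, 0 became 1 under cyclic loess. For WT MII against GV, Cnot1 and Cnot2 lost their calls under median scaling, quantile normalization and cyclic loess. Cnot3 was called higher under each of these (adjusted p = 0.00601, 0.00607 and 0.00371), and Cnot10 stayed lower. In that comparison Cnot2 also lost its call under TPM (0.0621) and Cnot1 in the smaller fit (0.068). For Cnot6l-/- MI against GV, 1 became 0 under TPM, median scaling, quantile normalization and cyclic loess (0 to 1). For Cnot6l-/- MII against MI, 0 became 1 with a pseudocount of 0.1, without the filter and in the smaller fit (0 to 1). The MI against GV interaction went to 0 from 2 under those 4 scalings (1 to 3), and the MII against MI one ran from 0 to 1. With the replicate number as a block, WT MI against GV had 3 called in place of 2, Cnot4 being added (adjusted p = 0.0477), and the other counts were as without it. At MI Cnot1 lost its call in the block fit (0.0519) and Cnot10 gained one (0.0389). Same-numbered libraries did not deviate together (r of -0.03 to 0.05 over 15 pairs of groups).

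Values that changed sign were these, in the order TPM, median scaling, quantile normalization and cyclic loess where all 4 are given. In Cnot6l-/- against WT oocytes at GV, Cnot3 gave 0.16, 0.0097, 0.096 and 0.12, and Cnot4 0.089 under TPM (-0.35 to 0.049 leaving out 1 library). At MI, Cnot3 gave -0.015 under median scaling. At MII, Cnot2 gave -0.41, -0.56, -0.61 and -0.69 (-0.18 to 0.24), Cnot3 -0.18, -0.34, -0.12 and -0.35, and Cnot4 -0.32, -0.47, -0.58 and -0.66 (-0.37 to 0.62). For WT MI against GV, Cnot1 gave 0.17 and 0.23 under quantile normalization and cyclic loess, and Cnot3 0.34, 0.41 and 0.26 under median scaling and these. For WT MII against MI, Cnot4 ran from -0.068 to 0.92. For WT MII against GV, Cnot2 gave 0.015 under cyclic loess, Cnot3 0.43, 0.82, 0.79 and 0.89, and Cnot4 0.27, 0.56 and 0.63 under the last 3. For Cnot6l-/- MI against GV, Cnot1 gave -0.39 and -0.17 under TPM and median scaling, Cnot2 -0.12 and Cnot4 -0.20 under TPM, and Cnot10 ran from -0.89 to 0.030. For Cnot6l-/- MII against MI, Cnot3 gave 0.017, 0.16, 0.19 and 0.23. For Cnot6l-/- MII against GV, Cnot4 gave 0.11 and 0.039 under quantile normalization and cyclic loess. In the MI against GV interaction, Cnot1 gave -0.045, -0.11 and -0.17 and Cnot3 -0.025, -0.023 and -0.070 under the last 3. In the MII against MI interaction, Cnot10 ran from -0.46 to 2.58.

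Of all genes, Cnot6l-/- against WT called 182 at GV (0 to 237 over the settings), 3311 at MI (388 to 4352) and 3340 at MII (1537 to 3490). WT MI against GV called 2892 (1422 to 3727), MII against MI 2574 (0 to 2788) and MII against GV 5165 (3849 to 5294). Cnot6l-/- MI against GV called 1194 (559 to 1557), MII against MI 857 (145 to 1589) and MII against GV 1855 (1009 to 2589), and the interactions 1711 (179 to 2654) and 761 (324 to 1225).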

Other observations

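Recruiters and partners that bring CCR4-NOT to mRNAs were described from a list of 21, of which 19 were tested. Between Cnot6l-/- and WT oocytes 1 was higher at GV, 8 at MI and 8 at MII by limma, where 0.163%, 27.9% and 25.4% of all genes were called higher at these stages. Medians were 0.08, 0.86 and 0.90 against -0.06, 1.03 and 0.81 for all genes. After median scaling 1, 0 and 4 were higher (against 0.189%, 2.14% and 16% of all genes) and 0, 1 and 1 lower (against 0.96%, 2.44% and 8.31%). Tob2, an antiproliferative adaptor of the deadenylases, had 71.5 and 82.2 FPKM in Cnot6l-/- against 15.0 and 4.19 in WT MII oocytes, a difference of 3.09 (SE 0.49, adjusted p = 0.00103). In WT oocytes Tob2 differed by -3.06 between MII and GV (adjusted p = 5.4e-04), where 1 of the list was called higher and 8 lower, against 6.02% and 38.3% of all genes. Btg4, an oocyte adaptor of CNOT7 and CNOT8, had 8494 and 8474 FPKM in Cnot6l-/- MII against 3829 and 3813 in Cnot6l-/- GV oocytes, a difference of 1.15 (SE 0.05, adjusted p = 7.2e-08).

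Other deadenylases were described from a list of 8, all tested. Between Cnot6l-/- and WT oocytes 0 were called at GV by limma (against 1.56% of all genes either way), with 0 at an unadjusted p below 0.05. At MI 2 were higher (against 27.9% of all genes) and at MII 1 was lower (against 3.2%). After median scaling 0 were called at MI (against 4.59% either way, and 1 at an unadjusted p below 0.05) and 5 were lower at MII (against 8.31%). The one lower at MII on deposited values was Ccrn4l, the nocturnin gene, with 210.1 and 117 FPKM in Cnot6l-/- against 326 and 333 in WT MII oocytes (-1.07, SE 0.28, adjusted p = 0.0162). Pan2, the catalytic subunit of the PAN2-PAN3 deadenylase, had 189 and 202 FPKM in WT MII against 52.6 and 41.9 in WT GV oocytes, a difference of 2.03 (SE 0.32, adjusted p = 5.1e-04). In that comparison 3 of the 8 were called higher and 2 lower, against 6.02% and 38.3% of all genes, with a median of 0.53 against -1.23 for all genes.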
